A study of Mus musculus with 12 samples.

Results

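Retinoic acid was followed through 10 genes: *Aldh1a2*, *Aldh1a3* and *Rdh10* for its synthesis, *Stra6* for the uptake of its precursor, *Cyp26a1* and *Cyp26b1* for its breakdown, *Dhrs3* for the return of retinal to retinol, *Rarb* as a receptor and response gene, and *Crabp1* and *Crabp2* for its binding in the cell. The genes were chosen by name, with earlier results of these data known. Every probe set (a group of short probes for one transcript) that the array annotation gives to them was taken. This gave 13 probe sets of 45037 in all, from 10 of 18193 genes with a symbol of their own. *Rdh10* had 2 probe sets, *Aldh1a3* had 3 and each of the other 8 genes had 1.

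The tissue was the nasal prominence, which forms the nose and the middle of the upper lip, and the maxillary prominence, which forms the sides of the lip and the upper jaw. Both were microdissected from E10.5 mouse embryos and pooled, with 3 independent pools for each of 4 groups and 12 arrays. Whether nasal and maxillary pools of a genotype came from the same embryos is not stated. Neo/Null embryos, labelled NeoNull (aflox/null), carried the hypomorphic Neo allele of *Tfap2a* and a null allele, and develop a bilateral facial cleft. Neo/Wt embryos, labelled control (aflox/wt), carried the same Neo allele and a wild-type allele, so every embryo of either genotype carried a Neo allele. The Neo allele holds a selection cassette between exons that encode the DNA-binding domain of AP-2α, and the stock was outbred. Some Neo/Null embryos of this stock also have an open brain, and whether any of them entered the pools is not stated in the sources used here.

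Cells make retinoic acid from retinol, the circulating form of vitamin A. Retinol dehydrogenases such as RDH10 oxidize retinol to retinal, and the ALDH1A enzymes oxidize retinal to retinoic acid. The acid binds nuclear receptors, the RARs with RXR partners, which sit on response elements in DNA, and CYP26 enzymes break it down. In the embryonic face retinoic acid is made around the eye and the olfactory pit, and both too little and too much of it cause clefts and other defects.

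The classic response element of the receptors is a direct repeat of a 6-letter motif with a spacing of 5 (DR5) or 2 bases (DR2). Both were searched on either strand in the 250 bases upstream of the starts in the RefSeq mouse promoter table (GRCm38.p6), which held 12 starts of 7 of the genes. DR5 was found upstream of *Rarb* and *Cyp26a1*, a receptor and a catabolic enzyme, and these elements are shown because both genes are known to respond to the acid and went opposite ways between the prominences. In each line the capitals mark the repeat, and the sequence is written on the strand of its gene.
Rarb: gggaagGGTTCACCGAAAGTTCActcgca
Cyp26a1: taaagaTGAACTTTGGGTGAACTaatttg
The *Rarb* stretch lies at chr14:16575507-16575535 on the minus strand, with the repeat 53 to 37 bases before the start. The *Cyp26a1* stretch lies at chr19:37697770-37697798 on the plus strand, with the repeat 32 to 16 bases before the start and reading on the opposite strand. DR5 occurred in 29 of 32851 promoters (0.0883%) and DR2 in 57 (0.174%), and neither was in the windows of *Aldh1a2*, *Stra6*, *Cyp26b1*, *Dhrs3* or *Crabp1*. A match of letters does not show that a receptor is bound there.

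Values are log2 signals, so a difference of 1 is a 2-fold difference, and they are compared only for 1 probe set at a time. The 12 arrays had medians between 5.13 and 5.19, and arrays of 1 group correlated at 0.996 to 0.997 on average. The brightest probe set of the targeted gene *Tfap2a* did not separate the genotypes, with a difference of 0.01 (SE 0.07) in nasal and 0.06 (SE 0.07) in maxillary tissue. Its place relative to the altered exons was not known, so it does not check the labels. Of the lists of tissue markers, 4 of 4 nasal genes were called present in nasal and 1 of 4 in maxillary groups, and of the 5 maxillary genes *Gsc* went against its list. The Neo/Wt maxillary pool 3 stood apart, with a mean log2 signal of 6.03 over 6 neuronal genes, against 8.53 and 8.26 in pools 1 and 2, and the results of the maxillary groups are also given without it where they moved. In pooled tissue, fewer cells of a type and less RNA per cell cannot be told apart.

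The authors gave each probe set a detection call per group, present, absent or variable. Of the 13 probe sets 10 were called present in all 4 groups, as were 44.7% of all probe sets. *Cyp26b1* was called absent in every group. *Aldh1a2* was called present in Neo/Null maxillary tissue only, variable in Neo/Wt maxillary tissue and absent in both nasal groups. Of the *Aldh1a3* probe sets 1 was variable in both maxillary groups.

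**Figure D1:**
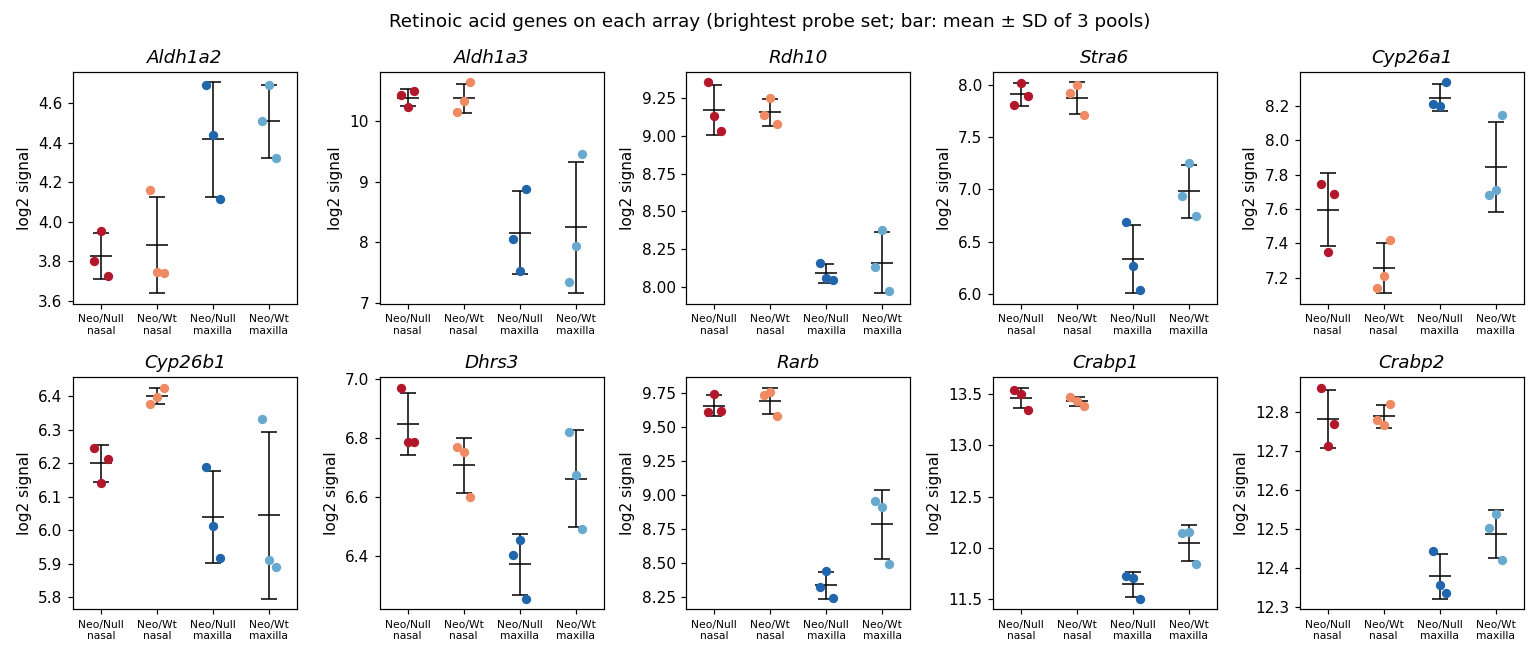
Log2 signal (y axis) of the brightest probe set of each gene on each array, by group (x axis), with 1 point per pool and bars for the mean ± SD of 3 pools. *Aldh1a3*, *Rdh10*, *Stra6*, *Rarb*, *Crabp1* and *Crabp2* were higher in every nasal pool than in any maxillary pool, and *Cyp26a1* separated the prominences within each genotype in the other direction.

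The first comparison asked how the pathway differs between nasal and maxillary tissue, in each genotype separately. The 10 probe sets present in all groups came from 8 genes, since *Aldh1a3* and *Rdh10* count more than once. The genes were picked with earlier results of these data known, so the shares over all probe sets do not test the list. Of these 10, 9 were higher and 1 was lower in nasal tissue of Neo/Null embryos at a limma adjusted p under 0.05. Among all probe sets present in all groups 8.17% were called in Neo/Null embryos, 4.8% higher and 3.37% lower. In Neo/Wt embryos 8 were higher and 1 lower, against 6.81% called, 3.2% higher and 3.62% lower. *Aldh1a3*, *Rdh10*, *Stra6*, *Rarb*, *Crabp1* and *Crabp2* rose and the catabolic gene *Cyp26a1* fell in nasal tissue of both genotypes. The adjusted p-values below come from a filter that asks for a present call in at least 1 of the prominences, under which 9.65% of 23732 probe sets were called in Neo/Null and 8.23% of 23025 in Neo/Wt. Each p-value rests on 3 pools per group.

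*Aldh1a3*, an enzyme of the last step of synthesis that is known from the eye and the olfactory region, had the widest gap. In nasal tissue its brightest probe set read 10.439, 10.239 and 10.504 in Neo/Null pools 1 to 3 and 10.161, 10.334 and 10.644 in Neo/Wt pools. In maxillary tissue it read 8.059, 7.521 and 8.884 in Neo/Null pools and 7.343, 7.934 and 9.453 in Neo/Wt pools. The prominences did not overlap, and the maxillary pools were scattered while the nasal pools were close together. The difference, nasal minus maxilla, was 2.24 (SE 0.43) or 4.72-fold in Neo/Null embryos (adjusted p = 0.00446) and 2.14 (SE 0.43) or 4.40-fold in Neo/Wt embryos (adjusted p = 0.0071). The other 2 probe sets gave 2.04 and 2.10 in Neo/Null and 1.89 and 2.00 in Neo/Wt.

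The spread of *Aldh1a3* between pools of a group was wide, with a residual SD of 0.66 for the brightest probe set, larger than that of 99.9% of the probe sets present in at least 1 group. It lay in the maxillary pools numbered 3, which were highest in both genotypes for all 3 probe sets. Without the Neo/Wt maxillary pool 3 the Neo/Wt difference was 2.74 (SE 0.31, adjusted p = 0.000192). That pool was the Neo/Wt maxillary one nearest to the nasal pools. Leaving it out must widen the difference, so the larger value and smaller p are no added evidence. The mean of 5 olfactory placode markers was also highest in pool 3 of either maxillary group, with 6.72, 6.51 and 6.82 in Neo/Null and 6.50, 6.63 and 6.94 in Neo/Wt, against 7.81 to 7.96 in Neo/Null nasal and 7.67 to 7.88 in Neo/Wt nasal pools. All 5 were called present in both nasal groups, 4 in Neo/Null maxillary and 3 in Neo/Wt maxillary tissue, and *Pax6* was called absent in both maxillary groups. The higher nasal mean rested on *Sp8*, *Pax6* and *Dlx5*, since *Eya1* differed by -0.01 in Neo/Null and 0.06 in Neo/Wt embryos, and *Ebf2* went against the list, at -1.71 in Neo/Null and -1.44 in Neo/Wt embryos (nasal minus maxilla). The mean of 5 retina and pigment epithelium markers was 4.22 to 4.34 in Neo/Null nasal and 4.24 to 4.35 in Neo/Null maxillary pools. It was 4.24 to 4.46 in Neo/Wt nasal and 4.17 to 4.32 in Neo/Wt maxillary pools, with 1 of 5 called present in each group. The part of either list in the spread of *Aldh1a3* was not tested.

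**Figure D2:**
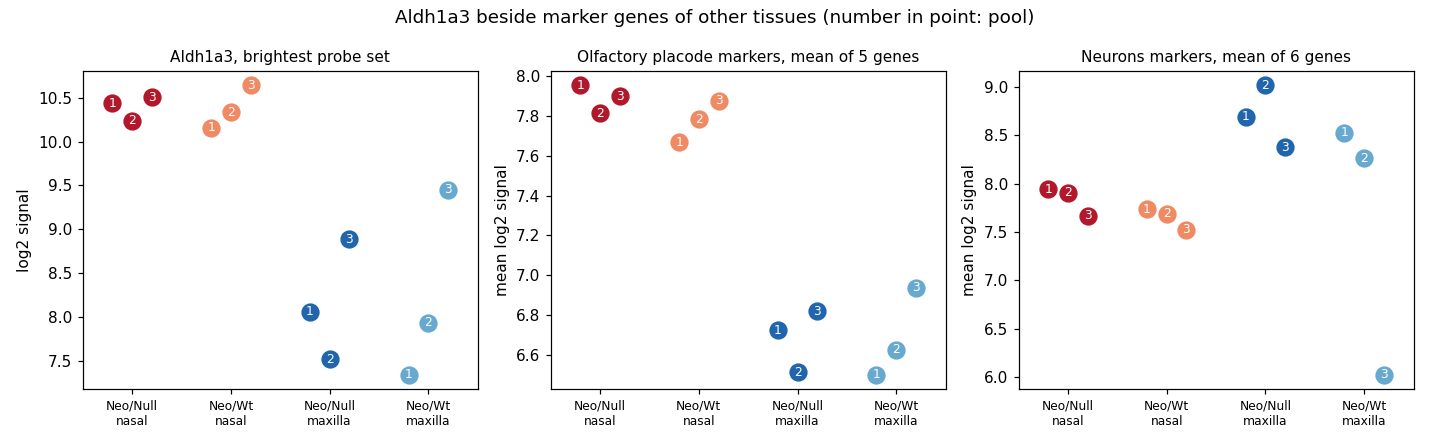
Log2 signal of *Aldh1a3* (left), mean log2 signal of 5 olfactory placode markers (middle) and of 6 neuronal markers (right) in each pool, with the pool number in the point. *Aldh1a3* and the placode markers were highest in pool 3 of both maxillary groups, and the Neo/Wt maxillary pool 3 had the lowest neuronal mean, 6.03.

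*Aldh1a2*, the main enzyme of the last step in the trunk of the embryo, was dim everywhere. It read 3.80, 3.95 and 3.73 in Neo/Null nasal and 4.16, 3.74 and 3.74 in Neo/Wt nasal pools. Maxillary pools read 4.69, 4.44 and 4.12 in Neo/Null and 4.51, 4.69 and 4.33 in Neo/Wt embryos. Since its signal was called absent in nasal tissue there is only a bound, at least 1.50-fold lower in nasal than in maxillary tissue of Neo/Null embryos (adjusted p = 0.0257), and it could be tested there only because of its call in maxillary tissue. The call was lost without any 1 of 4 Neo/Null arrays, nasal 1 or 3 or maxillary 1 or 2 (adjusted p = 0.074 to 0.108), and with an offset of 32 signal units the log2 difference was -0.21 against -0.59.

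*Rdh10*, which carries out the first step of synthesis, rose in nasal tissue with both probe sets. The brighter one read 9.36, 9.14 and 9.03 in Neo/Null nasal pools, against 8.16, 8.06 and 8.05 in Neo/Null maxillary pools. Neo/Wt pools read 9.14, 9.25 and 9.08 in nasal and 8.13, 8.37 and 7.97 in maxillary tissue. Its difference was 1.09 (SE 0.11, adjusted p = 2.18e-05) in Neo/Null and 1.00 (SE 0.11, adjusted p = 5.50e-05) in Neo/Wt embryos. The dimmer one differed by 1.25 in Neo/Null and by 0.99 in Neo/Wt embryos.

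*Stra6*, the membrane receptor that takes up retinol from its carrier in blood, was also higher in nasal tissue. Nasal pools read 7.81, 8.02 and 7.90 in Neo/Null and 7.92, 7.99 and 7.71 in Neo/Wt embryos. Maxillary pools read 6.69, 6.27 and 6.05 in Neo/Null and 6.94, 7.25 and 6.75 in Neo/Wt embryos. Every nasal pool was thus above every maxillary pool, by a mean of 1.57 (SE 0.16, adjusted p = 2.43e-05) in Neo/Null and 0.89 (SE 0.16, adjusted p = 0.0028) in Neo/Wt embryos.

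*Rarb*, a retinoic acid receptor whose promoter holds the DR5 element above, followed the same order. It read 9.61, 9.74 and 9.61 in Neo/Null nasal pools and 9.73, 9.76 and 9.58 in Neo/Wt nasal pools. In maxillary tissue the values were 8.32, 8.44 and 8.25 in Neo/Null and 8.95, 8.91 and 8.49 in Neo/Wt pools. The nasal pools of both genotypes lay together, and all maxillary pools were below them. The difference was 1.32 (SE 0.11, adjusted p = 5.15e-06) in Neo/Null and 0.91 (SE 0.11, adjusted p = 0.000177) in Neo/Wt embryos.

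*Cyp26a1*, the cytochrome P450 that oxidizes retinoic acid and whose upstream DR5 is printed above, ran the other way. Nasal pools read 7.75, 7.35 and 7.69 in Neo/Null and 7.14, 7.21 and 7.42 in Neo/Wt embryos. Maxillary pools read 8.21, 8.20 and 8.34 in Neo/Null and 7.68, 7.71 and 8.15 in Neo/Wt embryos. Within each genotype the prominences did not overlap, and nasal tissue was lower by a log2 difference of -0.65 (SE 0.13, adjusted p = 0.00677) in Neo/Null and -0.59 (SE 0.13, adjusted p = 0.0148) in Neo/Wt embryos. The Neo/Wt call was lost without Neo/Wt nasal pool 1 (adjusted p = 0.0631), without nasal pool 2 (adjusted p = 0.0576), and without both maxillary pools numbered 3 (adjusted p = 0.0553), an alternative chosen after seeing the data. *Cyp26b1*, the related enzyme, was absent by its call and was not tested, and its values lay between 5.89 and 6.43.

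*Dhrs3*, which reduces retinal back to retinol and so lowers the supply for synthesis, differed between the prominences in Neo/Null embryos. Its nasal pools read 6.97, 6.79 and 6.79 in Neo/Null and 6.77, 6.75 and 6.60 in Neo/Wt embryos. The maxillary pools read 6.40, 6.45 and 6.26 in Neo/Null and 6.82, 6.67 and 6.49 in Neo/Wt embryos. The Neo/Null prominences did not overlap and differed by 0.48 (SE 0.10, adjusted p = 0.00589). In Neo/Wt embryos they overlapped, with a difference of 0.04 (95% interval -0.16 to 0.25, adjusted p = 0.846).

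Both binding proteins were higher in nasal tissue. *Crabp1*, a cytoplasmic protein that holds retinoic acid and passes it to CYP26 enzymes, read 13.53, 13.50 and 13.35 in Neo/Null nasal and 13.47, 13.44 and 13.38 in Neo/Wt nasal pools. In maxillary tissue it read 11.73, 11.71 and 11.51 in Neo/Null and 12.15, 12.15 and 11.85 in Neo/Wt pools. The prominences were far apart relative to the spread of the pools, by 1.81 (SE 0.10, adjusted p = 8.03e-08) in Neo/Null and 1.38 (SE 0.10, adjusted p = 1.08e-06) in Neo/Wt embryos. *Crabp2*, which delivers retinoic acid to its receptors in the nucleus, had a smaller gap. Its nasal pools read 12.86, 12.71 and 12.77 in Neo/Null and 12.78, 12.76 and 12.82 in Neo/Wt embryos, and its maxillary pools 12.44, 12.36 and 12.34 in Neo/Null and 12.50, 12.54 and 12.42 in Neo/Wt embryos. No maxillary pool reached the nasal pools, and the difference was 0.40 (SE 0.07, adjusted p = 0.0016) in Neo/Null and 0.30 (SE 0.07, adjusted p = 0.0133) in Neo/Wt embryos. The Neo/Wt call of *Crabp2* was lost without both maxillary pools numbered 3 (adjusted p = 0.0611).

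Without the Neo/Wt maxillary pool 3 the Neo/Wt differences, nasal minus maxilla, were 0.91 for *Rdh10*, 0.77 for *Stra6*, 0.76 for *Rarb*, 1.28 for *Crabp1*, 0.27 for *Crabp2* and -0.44 for *Cyp26a1*, and all still passed (adjusted p = 3.89e-06 to 0.048).

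Markers of other tissues in the pools were read in both prominences. The mean of 6 forebrain markers was 6.43 to 6.48 in Neo/Null nasal and 4.73 to 5.23 in Neo/Null maxillary pools, and 6.20 to 6.30 in Neo/Wt nasal and 5.01 to 5.18 in Neo/Wt maxillary pools, with 5 of 6 called present in each nasal group, 3 in Neo/Null maxillary and 2 in Neo/Wt maxillary tissue. *Sox1* of this list was called absent in every group, and *Six3* was also in the list of nasal genes. Surface ectoderm means did not overlap between the prominences within a genotype, at 9.53 to 9.77 in Neo/Null nasal and 9.30 to 9.47 in Neo/Null maxillary pools, and 9.45 to 9.63 in Neo/Wt nasal and 9.10 to 9.44 in Neo/Wt maxillary pools. The members of this list differed. *Trp63* went against it, at -0.79 in Neo/Null and -0.66 in Neo/Wt embryos (nasal minus maxilla). *Epcam* was higher in nasal tissue, at 0.80 in Neo/Null and 0.91 in Neo/Wt embryos, as was *Esrp1*, at 0.39 and 0.41. *Krt18* and *Cdh1* passed the adjusted test in neither genotype. Endothelial means (4 genes) ran the other way, with 6.30 to 6.53 in Neo/Null nasal and 6.78 to 6.94 in Neo/Null maxillary pools, and 6.37 to 6.52 in Neo/Wt nasal and 6.80 to 6.97 in Neo/Wt maxillary pools. Macrophage means were lower in nasal tissue too, with 6.27 to 6.40 in Neo/Null nasal and 6.31 to 6.43 in Neo/Wt nasal pools, against 6.73 to 6.86 in Neo/Null maxillary and 6.55 to 6.70 in Neo/Wt maxillary pools. Neuronal means were 7.66 to 7.94 in Neo/Null nasal and 7.52 to 7.74 in Neo/Wt nasal pools. The mean of 5 mesenchymal markers was 9.75 to 10.04 in Neo/Null nasal and 9.78 to 10.03 in Neo/Null maxillary pools, and 9.77 to 10.03 in Neo/Wt nasal and 9.81 to 10.24 in Neo/Wt maxillary pools. Its members went both ways, with nasal minus maxillary differences of -1.61 in Neo/Null and -1.56 in Neo/Wt embryos for *Prrx1* and of 1.13 in Neo/Null and 0.94 in Neo/Wt embryos for *Col1a2*. The part of other tissues in the nasal to maxillary differences was not tested.

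**Figure D3:**
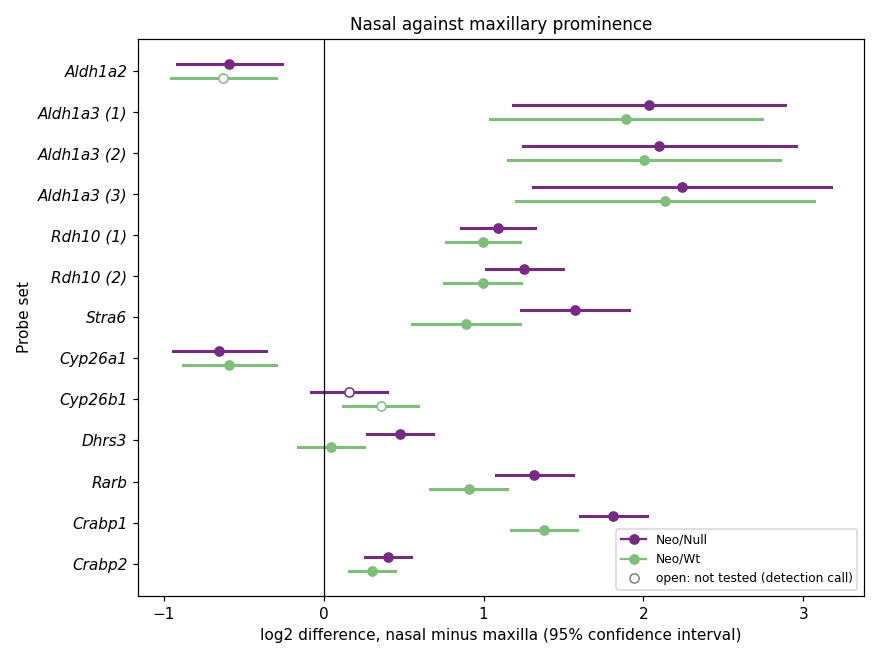
Log2 difference, nasal minus maxilla (x axis), of each probe set (y axis, numbered within a gene) with its 95% confidence interval, for Neo/Null (purple) and Neo/Wt (green) embryos. Open points were not tested because of their detection calls. *Aldh1a3* had the widest intervals and *Cyp26a1* lay below 0 in both genotypes.

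The second comparison asked whether the pathway differed between Neo/Null and Neo/Wt embryos within a prominence. No probe set of the pathway passed the adjusted test in either. In maxillary tissue 0 of 10 passed, as did 0 of 21213 over the whole array (0% called), and 0 of 10 and 4 of 21213 with the pool number as a block. At an unadjusted limma p under 0.05 there were 5 of the 10, against 4.97% of all probe sets tested (3.32% higher and 1.65% lower in Neo/Null tissue). Of these *Crabp1*, *Stra6*, *Rarb* and *Dhrs3* had lower values in Neo/Null tissue and *Cyp26a1* had higher values, and these 5 did not overlap between the genotypes, against 11.6% of all probe sets (6.41% higher and 5.22% lower). The median difference of the 10 was -0.14, against -0.005 over all probe sets, and 1 of the 10 was above 0, against 47.9% of all. Since the genes were picked with earlier results of these data known, such shares do not test the list, here or below.

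*Stra6* had the largest maxillary difference. All 3 Neo/Null pools, at 6.05 to 6.69, were below all Neo/Wt pools, at 6.75 to 7.25. The log2 difference, Neo/Null minus Neo/Wt, was -0.65 (SE 0.16, 95% interval -0.99 to -0.31) and did not pass (adjusted p = 0.655).

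*Rarb* read 8.25 to 8.44 in Neo/Null and 8.49 to 8.95 in Neo/Wt maxillary pools. Its closest Neo/Wt pool was number 3, the one with low neuronal genes. The difference was -0.45 (SE 0.11, 95% interval -0.69 to -0.21, adjusted p = 0.715), and without that pool it was -0.59 (SE 0.09, adjusted p = 0.0664).

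*Crabp1* differed by -0.40 (SE 0.10, 95% interval -0.61 to -0.20, adjusted p = 0.638), with 11.51 to 11.73 in Neo/Null and 11.85 to 12.15 in Neo/Wt pools. *Dhrs3* differed by -0.29 (SE 0.10, 95% interval -0.50 to -0.08, adjusted p = 0.915), with 6.26 to 6.45 in Neo/Null and 6.49 to 6.82 in Neo/Wt pools. *Cyp26a1* was the 1 with the opposite sign, at 0.40 (SE 0.13, 95% interval 0.11 to 0.69, adjusted p = 0.922), with 8.20 to 8.34 in Neo/Null and 7.68 to 8.15 in Neo/Wt pools. In all 5 genes the Neo/Wt maxillary pool 3 was the one nearest to the Neo/Null pools. Leaving out the nearest pool must make a difference larger, so the larger values without it are no added evidence. They were -0.76 for *Stra6*, -0.50 for *Crabp1*, -0.37 for *Dhrs3* and 0.55 for *Cyp26a1*. None of the 5 passed (adjusted p = 0.0664 to 0.259), while 10.2% of all probe sets were then at an unadjusted p under 0.05. Without the Neo/Wt maxillary pool 1, 3 of the 10 probe sets were at an unadjusted p under 0.05, against 3.21% of all probe sets.

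The synthesis genes had small differences in maxillary tissue. *Rdh10* differed by -0.07 (95% interval -0.30 to 0.16) and -0.09 for its 2 probe sets. *Aldh1a3* differed by -0.09, and its interval from -1.02 to 0.84 does not exclude a fold between 0.493 and 1.79. *Crabp2* differed by -0.11 (95% interval -0.25 to 0.04).

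Marker genes of other tissues were read beside these values. The mean of the 6 neuronal genes was 8.38 to 9.02 in Neo/Null and 6.03 to 8.53 in Neo/Wt maxillary pools, and all 6 were called present in both. The mean of 6 surface ectoderm genes was 9.30 to 9.47 in Neo/Null and 9.10 to 9.44 in Neo/Wt pools, with 6 of 6 present. Macrophage means (3 genes) did not overlap, at 6.73 to 6.86 in Neo/Null and 6.55 to 6.70 in Neo/Wt pools. The forebrain and placode means given above overlapped between the genotypes, as did the mean of 4 nasal genes, at 5.45 to 5.66 in Neo/Null and 5.48 to 5.97 in Neo/Wt pools. Single markers, chosen after their values were seen, had lower values in Neo/Null tissue beside *Stra6*, *Rarb* and *Crabp1*, with -1.31 for the forebrain gene *Emx2* (SE 0.19, adjusted p = 0.107), -0.67 for the placode gene *Dlx5* (SE 0.13, adjusted p = 0.429) and -0.54 for the nasal gene *Alx1* (SE 0.14, adjusted p = 0.794). Other genes of these lists had higher values in Neo/Null maxillary tissue. In the forebrain list these were *Otx2* at 0.76, *Sox1* at 0.23 and *Lhx2* at 0.20. In the placode list they were *Ebf2* at 0.36, *Sp8* at 0.34 and *Eya1* at 0.06. Of these only *Ebf2* and *Eya1* were present in both maxillary groups. The part of all these markers in the maxillary differences was not tested.

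In nasal tissue 0 of 11 probe sets passed, against 1 of 21088 over the array (0.00474% called). At an unadjusted p under 0.05 there was 1 of 11, against 3.88% of all (3.17% higher), a share that leaving out 1 nasal array moved to between 1.83% (without Neo/Wt pool 1) and 6.7% (without Neo/Null pool 3). This was *Cyp26a1*, again with higher values in Neo/Null tissue, by 0.34 (SE 0.13, 95% interval 0.05 to 0.63, adjusted p = 1.00). Its genotypes overlapped, since Neo/Null pool 2 at 7.35 lay below Neo/Wt pool 3 at 7.42. *Dhrs3* was the 1 probe set of 11 without overlap, against 8.19% of all, and differed by 0.14 (SE 0.10, 95% interval -0.07 to 0.35). Forebrain means did not overlap between the nasal groups, with the values above, and their part in these differences was not tested. The receptor and the binding proteins were near 0, with -0.04 for *Rarb* (95% interval -0.28 to 0.20), 0.03 for *Crabp1* (95% interval -0.18 to 0.24) and -0.01 for *Crabp2* (95% interval -0.15 to 0.14). The median of the 11 was 0.02, against 0.03 over all probe sets.

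**Figure D4:**
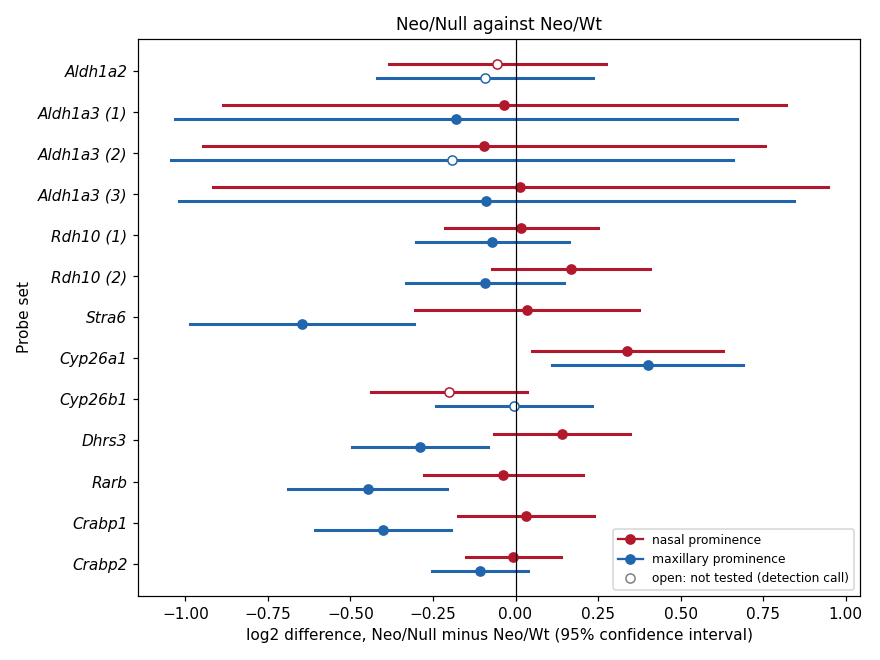
Log2 difference, Neo/Null minus Neo/Wt (x axis), of each probe set (y axis, numbered within a gene) with its 95% confidence interval, in nasal (red) and maxillary (blue) tissue. Open points were not tested because of their detection calls. *Stra6*, *Rarb*, *Crabp1* and *Dhrs3* lay below 0 in maxillary tissue, and *Cyp26a1* lay above 0 in both prominences, with none past the adjusted test.

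Averaged over both prominences, 0 of 10 passed, as did 0 of 20153 probe sets (0% called), and 4 were at an unadjusted p under 0.05, against 5.07% of all. *Cyp26a1* had the smallest p of these, with 0.37 (SE 0.09, adjusted p = 0.748). The others were *Rarb* at -0.24 (SE 0.08), *Stra6* at -0.31 (SE 0.11) and *Crabp1* at -0.19 (SE 0.07). Without the Neo/Wt maxillary pool 3 these were 0.45 for *Cyp26a1*, -0.36 for *Stra6* and -0.24 for *Crabp1*, with none past the adjusted test. With any 1 array left out they ran from 0.33 to 0.45 for *Cyp26a1* and from -0.39 to -0.23 for *Stra6*. The ranges were -0.32 to -0.20 for *Rarb* and -0.24 to -0.15 for *Crabp1*.

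Whether the genotype difference itself differed between the prominences was tested as an interaction, the nasal minus the maxillary difference. None of 11 probe sets passed, as did 0 of 22148 (0% called), and 4 were at an unadjusted p under 0.05, against 3.87% of all (2.86% positive). All 4 were positive, with 0.68 for *Stra6* (SE 0.22), 0.43 for *Crabp1* (SE 0.14), 0.43 for *Dhrs3* (SE 0.13) and 0.41 for *Rarb* (SE 0.16), each at an adjusted p of 0.999. Without the Neo/Wt maxillary pool 3 they were 0.80, 0.53, 0.51 and 0.56 for *Stra6*, *Crabp1*, *Dhrs3* and *Rarb*, each at an adjusted p of 0.535. With any 1 array left out they ran from 0.54 to 0.86 for *Stra6* and from 0.36 to 0.53 for *Crabp1*. The ranges were 0.35 to 0.51 for *Dhrs3* and 0.33 to 0.56 for *Rarb*. For *Cyp26a1* the interaction over all arrays was -0.06 (95% interval -0.47 to 0.35). A difference in genotype effect between the prominences was therefore not shown for any of them.

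Other genes of the pathway were read from 3 lists, of which a gene was tested through its brightest present probe set. Among 25 genes of synthesis and transport, 9 were tested between the prominences and 0 passed in either genotype. Of all probe sets tested, 9.65% were called in Neo/Null and 8.23% in Neo/Wt embryos. At an unadjusted limma p under 0.05 there was 1 of 9 in each genotype, against 22.3% of all in Neo/Null and 20.8% in Neo/Wt embryos. These were *Dhrs4*, a retinal reductase, at 0.20 in Neo/Null and *Rbp4*, the retinol carrier in blood, at -0.30 in Neo/Wt embryos. Among 15 receptors and cofactors, 10 were present in all groups, and 2 fell and 0 rose in nasal against maxillary tissue of each genotype, against 8.17% of all probe sets called in Neo/Null and 6.81% in Neo/Wt embryos. These were the orphan nuclear receptors *Nr2f1*, at -0.99 (SE 0.12, adjusted p = 8.89e-05) in Neo/Null and -0.79 (SE 0.12, adjusted p = 0.000742) in Neo/Wt embryos, and *Nr2f2*, at -0.34 (adjusted p = 0.0385) in Neo/Null and -0.59 (adjusted p = 0.00132) in Neo/Wt embryos.

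Among 20 genes that respond to retinoic acid in some tissue, 6 were present in all groups, and 1 rose and 2 fell in nasal tissue of each genotype, against 8.17% of all probe sets called in Neo/Null and 6.81% in Neo/Wt embryos. The homeobox gene *Meis2* differed by -1.17 in Neo/Null (SE 0.07, adjusted p = 3.17e-07) and -1.20 in Neo/Wt embryos (SE 0.07, adjusted p = 3.57e-07). It read 9.09 to 9.23 in Neo/Null nasal and 10.28 to 10.36 in Neo/Null maxillary pools. *Lhx8*, a homeobox gene of oral mesenchyme, was called variable in Neo/Null nasal tissue and present in the other groups, and read 4.01 to 5.09 in Neo/Null nasal, 4.30 to 5.70 in Neo/Wt nasal, 10.56 to 10.66 in Neo/Null maxillary and 10.40 to 10.75 in Neo/Wt maxillary pools. The transglutaminase *Tgm2* differed by -0.72 in Neo/Null and -0.77 in Neo/Wt embryos. The forkhead gene *Foxc1* rose by 0.75 in Neo/Null and 0.69 in Neo/Wt embryos. *Pax6*, a regulator of eye and placode that was not in that count, was called absent in maxillary tissue and was at least 6.69-fold higher in nasal tissue of Neo/Null and at least 5.91-fold higher in nasal tissue of Neo/Wt embryos. *Lhx8*, *Foxc1* and *Pax6* have broad roles in patterning beyond retinoic acid, and *Pax6* was also in the placode list.

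Between the genotypes 0 genes of these lists passed in either prominence. In nasal tissue 1 of 10 receptors and cofactors tested was at an unadjusted limma p under 0.05, *Nr2f2* at 0.25. The other lists had 0 of 9 and 0 of 7, against 3.88% of all probe sets. In maxillary tissue 1 of 8 genes of synthesis and transport was at that p, *Rdh13*, a retinol dehydrogenase, at 0.21. There the other lists had 0 of 11 and 0 of 7, against 4.97% of all. In the interaction, the nasal minus the maxillary genotype difference, 1 of 11 receptors and cofactors was at that p. This was *Ppard*, a nuclear receptor that can bind retinoic acid, at 0.40. The remaining lists had 0 of 9 and 0 of 8, against 3.87% of all probe sets.

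The genes whose pattern was most like that of each member were taken by Pearson correlation over the 12 arrays, which fall into 4 groups, so that a shared difference between the prominences alone gives high values. *Rarb* was most like *Alx1*, a homeobox gene of frontonasal mesenchyme (r = 0.993), *Dpep1* (r = 0.991) and *Tril* (r = 0.989). *Crabp1* was most like *Plaat3* (r = 0.993), *Alx1* (r = 0.991) and *Sh3gl3* (r = 0.991). *Stra6* had *Rarb* among its nearest genes (r = 0.970), after *Rhobtb2* (r = 0.972) and *Dpep1* (r = 0.971), and *Crabp2* had *Crabp1* (r = 0.977), with *Myo1e* (r = 0.979) and *Spsb1* (r = 0.977).

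*Aldh1a3* stood beside *Tpm1*, a tropomyosin gene (r = 0.985), *Pax6* (r = 0.978) and *Ephb1* (r = 0.975). The *Pax6* values show where these patterns meet: 7.59, 7.50 and 7.63 in Neo/Null nasal pools, 7.28, 7.42 and 7.79 in Neo/Wt nasal pools, 4.71, 4.34 and 5.44 in Neo/Null maxillary pools and 4.34, 4.87 and 5.59 in Neo/Wt maxillary pools. Both genes were highest in pool 3 of every group. *Rdh10* was most like *Plaat3* (r = 0.988), *Crym* (r = 0.988) and *Eya2* (r = 0.986).

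*Cyp26a1* was most like *Hs6st2* (r = 0.953), *Obsl1* (r = 0.943) and *Wdr75* (r = 0.940). *Dhrs3* followed *Otulin* (r = 0.933), *Fat4* (r = 0.916) and *Bmp7* (r = 0.911), and the dim *Aldh1a2* followed the matrix genes *Col6a3* (r = 0.935) and *Mmp2* (r = 0.933) and the cell cycle inhibitor *Cdkn1c* (r = 0.927).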

How the data were processed

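RNA of 12 pools of E10.5 facial tissue was hybridized to Affymetrix Mouse430 2.0 arrays. Signals were deposited on a log2 scale, 1 per probe set, and the authors scaled each array by a single factor. The methods name the GeneChip Operating Software and the file header a MAS signal, neither mentions a log, so the way the probes were combined stays unknown. The deposited detection score (1 present, -1 absent, 0 variable) per group of 3 arrays was used as given, and the rule that combined the arrays is not stated. In the table of calls 12 columns repeat the signals and were not used. Control probe sets (64) were left out.

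Group means of the 12 arrays were estimated in 1 linear model (limma 3.58.1, R 4.3.3), variances were moderated by eBayes (8 residual degrees of freedom, 4.72 prior), and the procedure was tested on simulated data. Nasal against maxillary tissue was tested where a probe set was present in at least 1 of the groups compared, Neo/Null against Neo/Wt where it was present in both, the average where it was present in all 4 groups, and the interaction where it was present in both genotypes of a prominence. The two-sided p-values received the Benjamini-Hochberg adjustment over every probe set tested in a comparison, and 0.05 was the threshold. Intervals are limma's 95% intervals. The number of arrays limits the precision. A bound ("at least") sets the mean of the group with a signal against the mean of the group called absent.

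The members, the lists and the rule for named genes were chosen with earlier results of these data known. Named were all members, up to 4 genes per list and comparison with the smallest p (Foxc1, past the threshold as well, was added after its values were seen), and the 3 genes most correlated with each member. In maxillary tissue the pools numbered 3 deviated together across probe sets between the genotypes (correlation 0.49). Maxillary pools 1 and 2 did not pair by number. They gave 0.17 and 0.24 with the pool of the same number. Neo/Null pool 1 gave 0.19 with Neo/Wt pool 2, and Neo/Null pool 2 gave 0.23 with Neo/Wt pool 1. Nasal pairs of the same number gave -0.18, 0.14 and 0.22. The labels do not say that a number marks a shared litter or day, or the same embryos in both prominences. The main model did not pair the prominences. Alternatives were other scalings, an offset, other filters and variance models, the pool number as a block, and leaving out arrays.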

Additional observations from a re-analysis of the deposited data

Results flagged for a closer look

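The *Dhrs3* pools of the 2 genotypes did not overlap in either prominence, with opposite signs. All 3 Neo/Null nasal pools (6.79 to 6.97) were above all 3 Neo/Wt nasal pools (6.60 to 6.77), and all 3 Neo/Null maxillary pools (6.26 to 6.45) were below all 3 Neo/Wt maxillary pools (6.49 to 6.82). The nasal difference was 0.14 (95% interval -0.07 to 0.35) and the maxillary one -0.29 (95% interval -0.50 to -0.08), neither passed, and 8.19% of all probe sets tested did not overlap in nasal and 11.6% in maxillary tissue. The test of the difference itself gave 0.43 on the log2 scale (SE 0.13, 95% interval 0.14 to 0.72), with an unadjusted limma p of 0.0072 and an adjusted p of 0.999, so it did not pass.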

How the results depend on the processing

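Of 651 values of 30 gene results under the alternatives, 643 kept their direction and their side of the threshold, 8 lost their call and 0 reversed. The 8 belong to *Aldh1a2* in Neo/Null and to *Cyp26a1* and *Crabp2* in Neo/Wt embryos between the prominences and stand in the report. The 30 were the results at an unadjusted limma p under 0.05 in the main fit, so a reversal was unlikely from the start. Those of the genotypes, the average and the interaction were not called in the main fit and kept their side by staying uncalled. Between the genotypes 0 were called under any alternative. In maxillary tissue 3 to 5 were at an unadjusted p under 0.05 with 1 array left out, 3 without Neo/Wt pool 1, and 5 to 6 otherwise. In nasal tissue this was 0 without Neo/Null pool 1, Neo/Wt pool 1 or Neo/Wt pool 2. With the pool number as a block, 5 member probe sets were at an unadjusted p under 0.05 in maxillary tissue and the block changed no member's call. Over the whole array, 4 probe sets were called and 2173 were at an unadjusted p under 0.05 in maxillary tissue without Neo/Wt pool 3, against 0 and 1054 with it, and 681, 669 and 703 were at that p without Neo/Wt pool 1, Neo/Wt pool 2 or Neo/Null pool 2. For the interaction there were 858 with all arrays, 1671 without Neo/Wt maxillary pool 3, and 521, 551 and 574 without Neo/Wt maxillary pool 2, Neo/Null maxillary pool 2 or Neo/Wt nasal pool 1. Of nasal probe sets at an unadjusted p under 0.05, 669 of 819 were higher in Neo/Null tissue, against 504 of 748 after quantile normalization and 770 of 873 after median centring, and with an offset of 32 there were 1245. Without Neo/Wt nasal pool 1 it was 250 of 385, and without Neo/Null nasal pool 3 1237 of 1413. The average and the interaction cannot be fitted on only the arrays of 1 prominence. The dim signal of *Aldh1a2*, the absent call of *Cyp26b1* in every group and 3 pools per group limit what can be seen.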
